A study of Homo sapiens with 1 sample.

Results

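The human annotation used for this experiment lists 5273 nuclear genes with 1 exon of 60 to 115 bases, out of 63494 genes in all. They were chosen by chromosome, exon number and length alone, with no use of the counts, and are called short genes here. This length holds many of the small structured RNAs of the cell. A microRNA precursor is a hairpin that is cut down to a mature microRNA, box C/D small nucleolar RNAs guide the methylation of ribosomal RNA, Y RNAs bind the Ro protein, and transfer RNAs carry amino acids to the ribosome. Copies of such RNAs that were inserted elsewhere in the genome give many further genes of similar length that are annotated as pseudogenes.

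The values come from 1 PAR-CLIP library, a pull-down of RNA that long-wave UV light has linked to bound protein in cells fed a thiolated nucleoside. It was made from HEK293T cells, a human embryonic kidney line, that carried an SFB empty vector and so expressed the tag (an S-protein-binding tag, FLAG tags and a streptavidin-binding peptide) with no protein fused to it. The cells received 0.1 mM thioguanosine and 0.4 J of 365 nm light per square centimetre, and RNA was recovered on streptavidin and then FLAG resin. The library was the negative control for tagged BRCA1 BRCT domain and tagged BARD1, which were not analysed here, so no condition was compared and no value has a replicate error. It held 33677888 read pairs, of which 16485622 were not aligned to the genome. A further 4051714 lay on the exons of 1 gene, 3510688 aligned to several places and 9493222 aligned once on no exon. The tables give genes by identifiers that matched 0 names in the reference tables, so neither the type of RNA nor the labelled cell line could be checked against named markers.

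Length gives a guide to what such genes can be. RefSeq lists 5219 nuclear genes of 60 to 115 bases on another assembly, GRCh38.p14, and of these 2136 are pseudogenes, 1737 microRNAs, 759 small nucleolar RNAs, 443 transfer RNAs, 66 small nuclear RNAs and 4 Y RNAs. Transfer RNAs are concentrated between 70 and 79 bases (362 genes), and pseudogenes between 100 and 109 bases (1244 of 1753 genes). No short gene of the library was assigned a type from its length.

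Most short genes had no reads. Of the 5273, 4641 (88.0%) had a count of 0, 142 had 1 or 2 reads, and 490 (9.29%) had at least 3 reads, the minimum used here to call a gene detected, whereas 33.5% of all genes listed were detected. The minimum of 3 reads equals 0.00214% of the reads on short genes. Both mates of a pair were counted, so a count of 0 allows up to 3 pairs, which is more than 3 reads. Among the detected short genes the median was 12.0 reads. For scale, the pairs on no exon, spread evenly over the genome, would place about 1.53 reads on a gene of the median length of 97 bases, if each read were 150 bases long. At least 30 reads were held by 164 short genes, at least 100 by 93 and at least 1000 by 35.

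The short genes together held 140092 of the 8104708 gene reads, 1.73% (95% Wilson interval 1.72% to 1.74%), while they made up 8.30% of the genes. Of all gene reads, 47.9% lay on 1 nuclear gene with several exons (3882832 reads), and all nuclear genes together held 77.1%. The short genes held 2.24% of the nuclear gene reads, which include those of that 1 gene. Single-exon nuclear genes of the next length class, 116 to 350 bases, had 648 of 6552 genes detected (9.89%) and held fewer reads, 103933. Short genes minus this class was -0.597 percentage points at 3 reads, -1.49 at 1 read and 0.0959 at 10 reads. Single-exon nuclear genes over 350 bases were detected in 16.3% of cases and nuclear genes with several exons in 46.7%. The distributions differed at the upper end. Of the detected genes, 7.14% of the short genes reached 1000 reads, against 2.78% of those of 116 to 350 bases, 0.809% of longer single-exon genes and 0.984% of genes with several exons. Counted over all genes, detected or not, 35 of 5273 short genes and 18 of 6552 genes of 116 to 350 bases reached 1000 reads. So did 17 of 12887 longer single-exon genes and 177 of 38516 genes with several exons. The contrast among detected genes thus also depends on the share detected, which was lowest for the short genes. Short genes were 490 of the 21239 nuclear genes with at least 3 reads (2.31%) but 35 of the 247 with at least 1000 (14.2%). They were 5273 of the 63451 nuclear genes listed. These are shares of genes in 1 library, and genes are not replicates, so the differences were not tested.

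**Figure D1:**
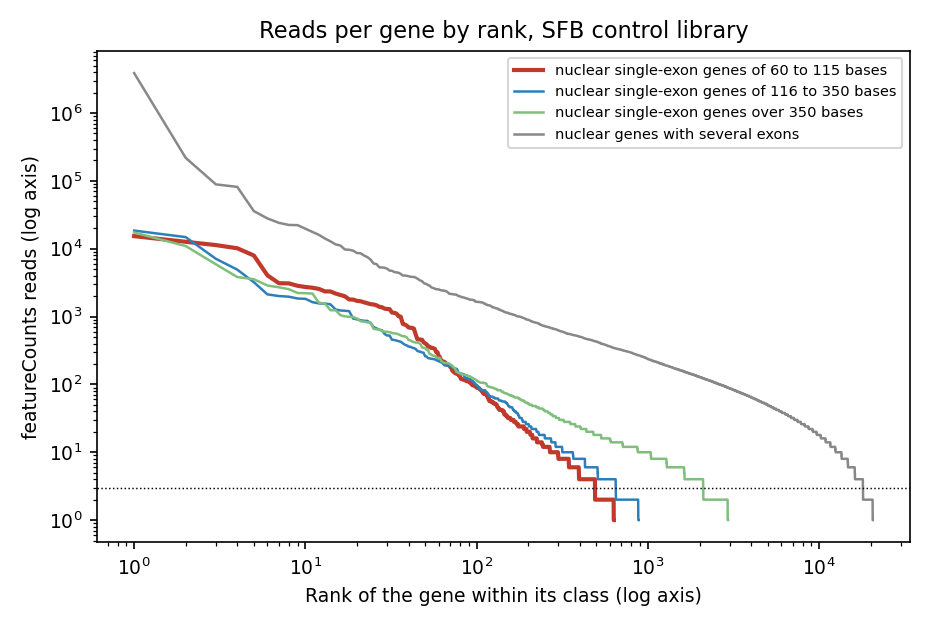
Reads per gene (vertical, log axis) against the rank of the gene in its class (horizontal, log axis) for short genes (red) and 3 other classes of nuclear genes in the SFB control library; the dotted line marks 3 reads. The red line lies above the other single-exon classes for much of its first 50 ranks, then falls below the longest single-exon class, and ends at 632 genes with any read.

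The reads on short genes were concentrated on few of them. The highest held 10.9% of the reads (95% interval 10.8% to 11.1%), the highest 5 held 41.0%, the highest 10 held 52.3% (95% interval 52.0% to 52.5%) and the highest 50 held 88.7%. It took 9 genes to reach 50% of the reads and 55 to reach 90%, against 7 and 93 genes in the class of 116 to 350 bases. Without the highest gene, the next 10 held 48.5% of the remaining reads. The highest 10 lay on 7 chromosomes, and the closest other short gene to any of them was 25233 bases away.

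The highest count was that of CHM13_G0010470, a gene of 61 bases on the plus strand of chromosome 11, from 104256897 to 104256957 in T2T-CHM13 v1.1, with 15336 reads. It lies outside any other annotated gene, and for 7660 of its 7668 pairs the first read matched the strand of the gene. Next was CHM13_G0004960, with 109 bases on the plus strand of chromosome 1 from 227744287 to 227744395, which held 12665 reads. Another 2 genes of exactly 109 bases followed it. The first lies on the plus strand of chromosome 8 from 28808580 to 28808688, within a gene of the same strand, and had 11324 reads. The other is on the minus strand of chromosome 1 from 227961586 to 227961694, outside other genes, and had 10165 reads. The fifth count was lower, with 7942 reads on a gene of 103 bases on chromosome 6 (plus strand, 144642219 to 144642321).

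From the sixth rank on, the counts were lower and closer together. A gene of 100 bases on the minus strand of chromosome 10 (14677413 to 14677512) held 4052 reads, and one of 95 bases on the plus strand of chromosome 16 (55896017 to 55896111) held 3104. A gene of 115 bases on the minus strand of chromosome 3 (145338937 to 145339051) held 3084 reads, one of 93 bases on the plus strand of chromosome 1 (111056656 to 111056748) held 2844, and one of 109 bases on the plus strand of chromosome 16 (74538677 to 74538785) held 2729. The last of these was the only one of the highest 10 with most pairs in the column where the first read is opposite to the gene, and which column is sense is not given in the sources used here. The highest 10 were the same genes when STAR pairs were ranked in place of featureCounts reads.

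Detection rose with length within the short genes. It was 3.15% of 634 genes of 60 to 69 bases, 5.53% of 669 genes of 70 to 79, 6.04% of 795 genes of 80 to 89, 10.2% of 757 genes of 90 to 99, 11.3% of 1912 genes of 100 to 109 and 18.2% of 506 genes of 110 to 115 bases. A longer gene offers more bases for a read to overlap, and the part of this in the rise was not tested. Reads did not follow the same order. The class of 100 to 109 bases held 51.3% of the reads and that of 90 to 99 bases 20.2%. The classes of 70 to 79 and 80 to 89 bases, where RefSeq holds most of its transfer RNAs and many microRNAs, held 3.06% and 2.57%. RefSeq lists 1137 genes of 70 to 79 bases, 362 of them transfer RNAs, against 669 genes of any type here. How many of the 669 are transfer RNAs is not known, and pairs that align to several places were not counted. In the shortest class 96.4% of the 15911 reads came from its highest gene, the gene of 61 bases described above, and the other genes of that class held 575 reads. The highest gene of 70 to 79 bases (74 bases, minus strand of chromosome 1, 28420705 to 28420778) had 1990 reads and that of 80 to 89 bases (85 bases, plus strand of chromosome 11, 22808981 to 22809065) had 1292.

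Single lengths were uneven in both number and reads, and those given here were chosen after the values were seen. The commonest length was 107 bases, with 565 genes, of which 68 were detected (12.0%) with 6966 reads in all. RefSeq has 470 genes of that length, 432 of them pseudogenes. By contrast the 110 genes of 109 bases, 22 of them detected, held 40905 reads, 29.2% of all reads on short genes. Without the highest 3 of them, the rest held 6751. At 96 bases, 22 of 107 genes were detected with 12455 reads, and no gene held more than 2660, so these reads were spread more evenly. None of the 105 genes of 81 bases reached 3 reads, and they held 4 reads together. At the edges of the length window, 3 of 59 genes of 61 bases and 0 of 62 genes of 60 bases were detected, and at the upper edge 20 of 49 genes of 115 bases were detected against 11 of 40 genes of 116 bases just outside.

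**Figure D2:**
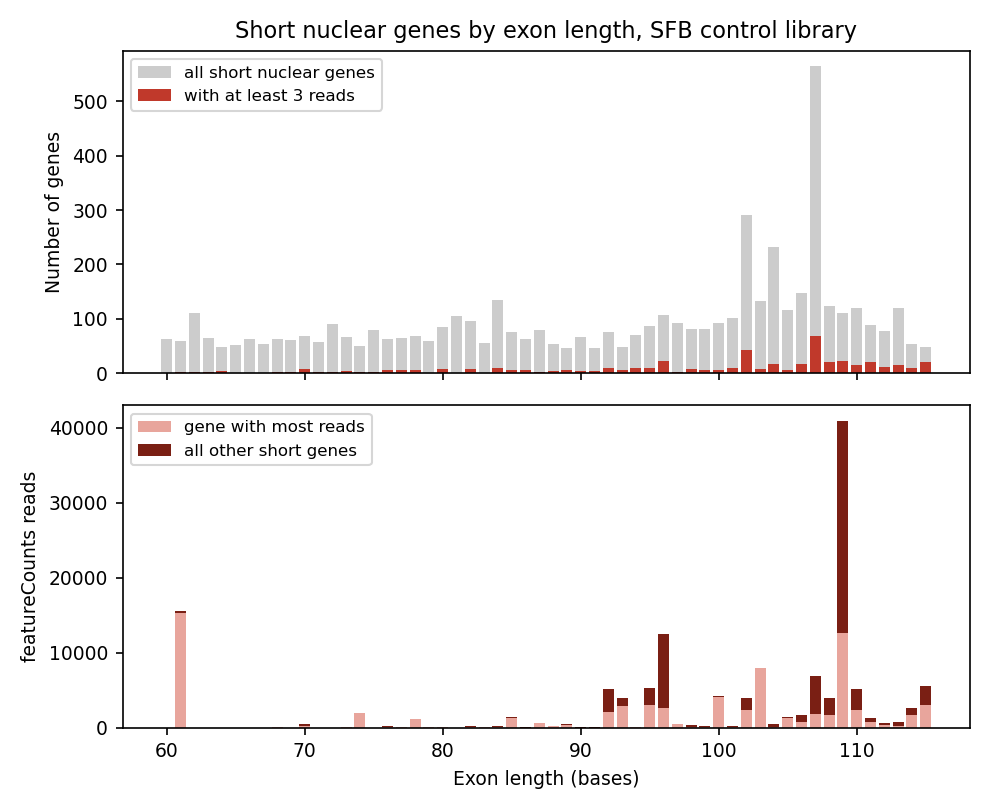
Number of short genes (upper panel, all in grey and those with at least 3 reads in red) and featureCounts reads (lower panel, the highest gene of each length in light red and all others in dark red) for each exon length in bases. The tallest bar of genes is at 107 bases (565 genes), whereas the tallest bar of reads is at 109 bases (40905 reads), followed by 61 bases, where 1 gene holds 15336 of 15610 reads.

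Short genes were found on all 23 nuclear chromosomes of the table. Detection ranged from 1.47% on chromosome 21 (1 of 68 genes) to 13.5% on chromosome 5 (33 of 245), with 13.4% on chromosome 11, 13.1% on chromosome 18 and 12.9% on chromosome 2. On the acrocentric chromosomes (13, 14, 15, 21 and 22), whose short arms carry the ribosomal RNA genes, 56 of 916 short genes were detected (6.11%), against 434 of 4357 (9.96%) on the other chromosomes. The acrocentric chromosomes held 17.4% of the short genes and 4.53% of their reads. Chains of neighbouring short genes with at most 14 reads each lie on chromosomes 14 (45, 43 and 42 genes) and 15 (44 and 31 genes). The other chromosomes hold such chains too, with 51 genes on chromosome 19 and 32 on chromosome 4. Pairs that align to several places were left out of the counts, and the part of this in the lower detection was not tested. On the X chromosome 25 of 259 were detected (9.65%). The reads followed single genes more than chromosomes. Chromosome 1 held 37119 reads (26.5%), 12665 of them on its highest gene. The highest gene held 72.9% of the reads of chromosome 11, 87.4% of chromosome 8, 78.5% of chromosome 6 and 94.6% of chromosome 9.

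**Figure D3:**
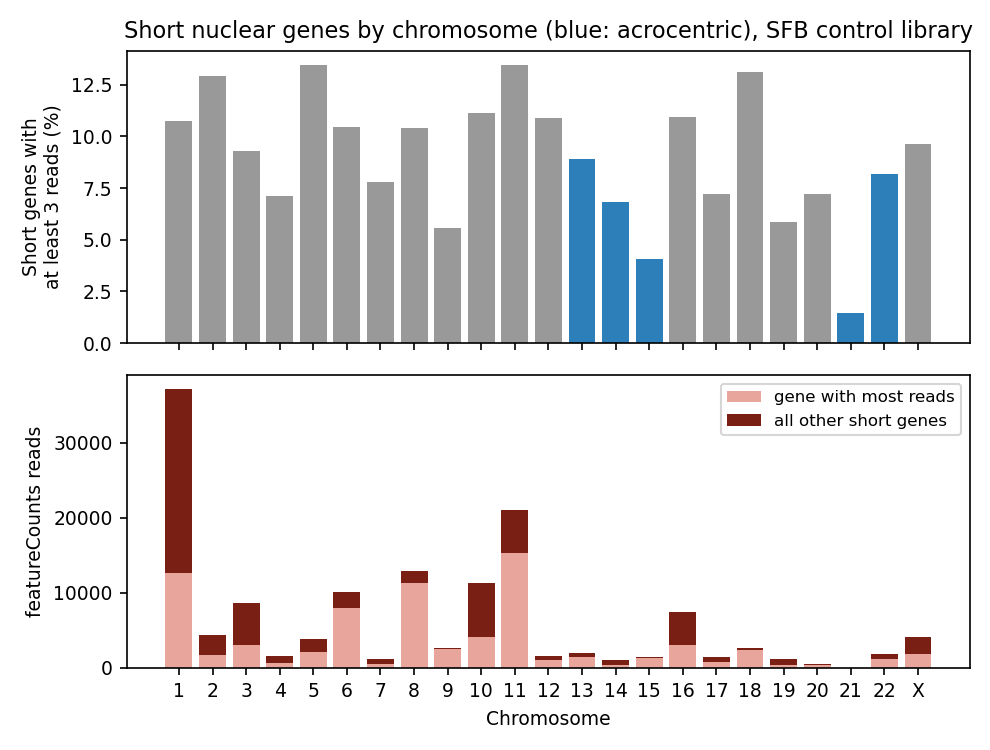
Percentage of short genes with at least 3 reads (upper panel, acrocentric chromosomes in blue) and featureCounts reads on short genes (lower panel, the highest gene in light red and all others in dark red) for each chromosome. Chromosome 21 has the lowest percentage (1.47%), and chromosome 1 the most reads (37119).

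Small RNA genes often lie in tandem arrays or inside the introns of a host gene, which lets many of them be made from 1 transcript. Of the short genes, 1136 had another short gene within 10000 bases, and 84 of these were detected (7.39%), against 406 of 4137 others (9.81%). Without the short genes that overlap an exon of another gene this difference changed sign, to 0.357 percentage points in favour of genes with a neighbour. The reads showed a larger contrast, since genes with a neighbour held 3757 reads (2.68%) and no single one of them more than 548. Chains of at least 5 short genes with gaps of at most 10000 bases numbered 31 and held 434 genes, of which 19 were detected (4.38%), and in 21 of the chains none was.

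The 7 largest chains were nearly empty of reads, with 288 genes, 5 of them detected, and 33 reads. The largest, on chromosome 19 from 56746195 to 56846107, had 51 genes with a median length of 87.0 bases and 0 reads. This allows up to 3 pairs for the chain. A chain of 45 genes on chromosome 14 from 95160253 to 95233952, all on the plus strand with a median length of 72.0 bases, had 14 reads, and another of 42 genes beginning at 95257509 had 13. On chromosome 15, 44 genes of 81 or 82 bases from 22907393 to 22987610 had 2 reads. On chromosome 4, 32 genes of exactly 84 bases from 193437427 to 193539734 had 0. Near-identical copies are a limit here, because pairs that align to several places were left out of the gene counts, so a low count in a repeated array cannot be told apart from reads that aligned to more than 1 copy. The chain with most detected genes for its size lay on the minus strand of chromosome 16 from 38373270 to 38382566, where 5 of 8 genes were detected with 66 reads.

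Placement relative to other genes made little difference to detection, except where exons overlap. Detection was 10.4% of the 1588 short genes outside other genes, 11.1% of the 1816 within a gene of the same strand and 11.5% of the 994 within a gene of the opposite strand only. It was 1.03% of the 875 short genes that overlap an exon of another gene. Reads on exons of several genes are left uncounted by both counters, and the strand columns show part of what that removes, since these 875 genes had 210 pairs without use of strand and 486 with it. By reads, the genes outside other genes held 49.6%, those within a same-strand gene 31.7% and those within an opposite-strand gene 18.4%.

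For short genes within another gene, outside its exons, the count was set beside that of the exons of the containing gene with most reads. Of the 316 detected ones, 135 had more reads than all exons of that gene (42.7%). Of the 52 with at least 100 reads, 48 did, and of the 20 with at least 1000 reads, all 20 did. These genes were picked by the same count that is compared, and the highest containing gene had 1646 reads, so the rise in this share with the minimum follows in large part from the choice and is given as a description. The containing genes of those 20 had a median of 24.0 reads and at most 186, and 4 of them had none. The gene of 109 bases on chromosome 8, with 11324 reads, lies in a gene with 26 exon reads, and the gene of 103 bases on chromosome 6, with 7942, in a gene with 12. The tables give no reads by position, so whether reads extend from the short gene into the surrounding intron cannot be told.

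**Figure D4:**
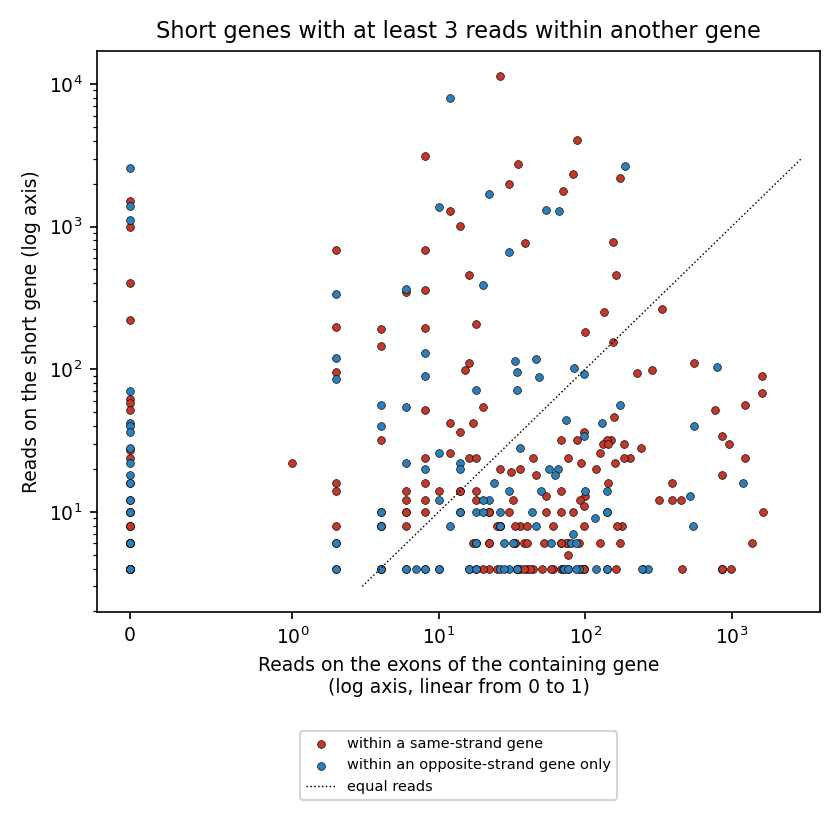
Reads on each detected short gene within another gene (vertical, log axis) against the reads on the exons of the containing gene (horizontal, log axis that is linear from 0 to 1), in red for same-strand and blue for opposite-strand containing genes; the dotted line marks equal reads. All 20 short genes with at least 1000 reads lie above the line, whereas most with few reads lie below it.

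STAR also splits the pairs into a same-strand column, in which the first read matches the strand of the gene, and an opposite-strand column. The library was made with a SMARTer stranded pico kit per the methods, but which column holds the sense reads is not given in the sources used here. Nuclear genes with several exons and at least 30 stranded pairs numbered 4728. Of these, 2425 had under 10% of the pairs in the same-strand column and 466 had over 90%, with a median of 9.38%. Each share below can thus also be read turned, with the opposite-strand column as sense. Read that way, most pairs on 9 of the highest 10 short genes would lie opposite to the annotated gene. Neither reading was tested. For short genes the same-strand column held 56120 pairs and the opposite one 14266, a same-strand share of 79.7% (95% interval 79.4% to 80.0%). The other nuclear genes had 18.7% there, and 48.3% without their single highest gene. The single-exon classes were closer, with 52.7% at 116 to 350 bases, 54.0% over 350 bases and 80.6% in the few pairs under 60 bases. The pooled share of the short genes fell to 63.5% without the highest 10. The median over the 119 short genes that had 30 or more stranded pairs was 64.6%. Of these, 46 genes had over 90% (11.7% of all such nuclear genes did) and 41 had under 10% (50.5% of all such nuclear genes did). Over 90% were also 69 of 212 single-exon genes over 350 bases (32.5%) and 29 of 140 of 116 to 350 bases (20.7%). Between 10% and 90% lay 32 of the 119 short genes, against 43 of the 212, 52 of the 140 and 1933 of 5082 other nuclear genes, and the share lying between was thus smaller in the single-exon genes over 350 bases than in the short genes.

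The strand balance moved with abundance in the short genes, and not always in the same way in other classes. Of the 52 short genes with 30 to 99 stranded pairs, 10 were over 90% and 25 under 10%, with a median of 13.5%. Of the 51 with 100 to 999 pairs, 22 were over 90% and 15 under 10%, and the median was 78.3%. Of the 16 with at least 1000 pairs, 14 were over 90% and 1 under 10%. Among other nuclear genes the percentage over 90% also rose over these ranges, from 8.33% to 15.9% and 45.2%, and of 104 with at least 1000 pairs 47 were over 90% and 50 under 10%. Single-exon genes over 350 bases went from a median of 11.9% at 30 to 99 pairs to 97.5% at 1000 or more, where 7 of 11 were over 90%. Among the 61 nuclear genes of that abundance with over 90% in the same-strand column, 14 were short genes, whereas among the 51 with under 10% there was 1.

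**Figure D5:**
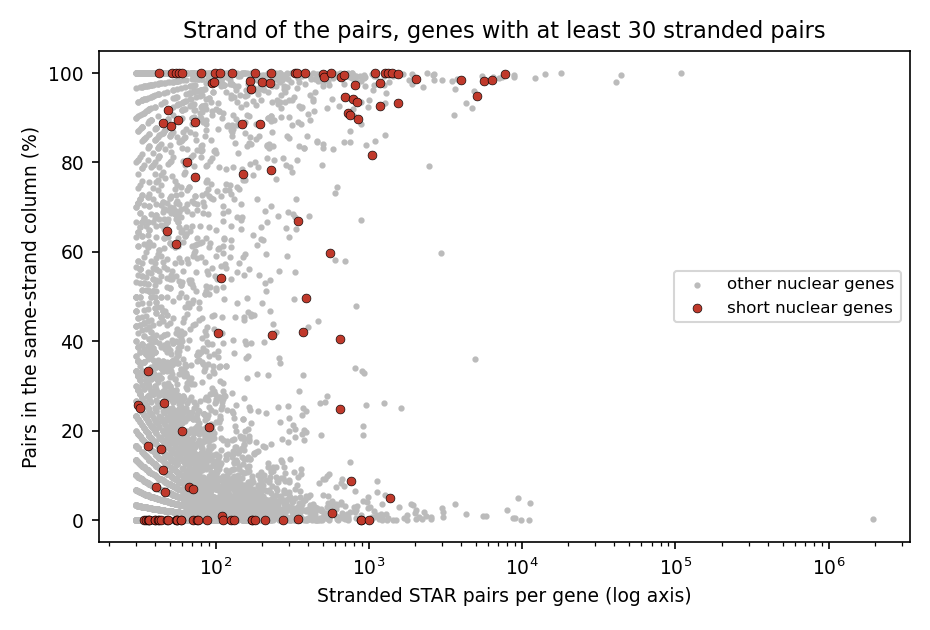
Percentage of stranded pairs in the same-strand column (vertical) against the stranded pairs per gene (horizontal, log axis) for the 119 short genes (red) and 5082 other nuclear genes (grey) with at least 30 stranded pairs. Of the 16 short genes with at least 1000 pairs, 14 lie above 90%, whereas at 30 to 99 pairs 25 of 52 lie below 10%.

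By length, some classes lay at 1 end of the scale and others were mixed. Of all nuclear genes with at least 30 stranded pairs, 50.5% were under 10% and 11.7% over 90%. All 7 genes of 70 to 79 bases with at least 30 stranded pairs were under 10%, and 5 of them had no pair at all in the same-strand column. The highest of these, the gene of 74 bases on chromosome 1, had 1 pair in the same-strand column and 995 in the opposite one. The next, of 78 bases, had 9 and 564. At 90 to 99 bases, 18 of 28 genes were over 90% and 5 under 10%. The other classes were mixed, with 17 over 90% and 20 under 10% of 49 genes at 100 to 109 bases, 8 and 4 of 23 at 110 to 115, 1 and 3 of 8 at 80 to 89, and 2 and 2 of 4 at 60 to 69. Of single lengths chosen after the values were seen, 96 bases had 9 of 11 genes over 90%. At 107 bases, the commonest length, 8 of 12 were under 10% and 1 was over 90%. Of the genes under 10%, those with most pairs were the gene of 109 bases on chromosome 16 at rank 10, with 68 pairs in the same-strand and 1298 in the opposite-strand column, the gene of 74 bases, and a gene of 107 bases on the minus strand of the X chromosome (128628872 to 128628978), with 1 and 893 pairs. Of the genes over 90%, those with most pairs were the highest 3 by reads, with 99.9%, 98.5% and 98.2% in that column.

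Neighbours and containing genes gave further values for strand. Of the 13 short genes with at least 30 stranded pairs and a neighbour within 10000 bases, 10 were under 10% and 1 over 90%, against 31 and 45 of the 106 others. Among all nuclear genes with at least 30 stranded pairs these shares were 50.5% and 11.7%. The median share was 57.1% for 40 genes within a same-strand gene, 88.7% for 27 within an opposite-strand gene only and 42.0% for 47 outside other genes. Whether the reads at either end of the scale come from the annotated RNA or from another transcript over the same bases was not tested.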

How the data were processed

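On cleaned reads, the authors ran STAR (version 2.7.6a per the labels, whereas the methods name another) with the T2T-CHM13 v1.1 genome, and deposited counts of uniquely aligned pairs per gene, without strand and by strand. The authors also deposited featureCounts counts, made with version 2.0.2 per the file headers, of reads per gene without strand. Both mates were counted, so reads were 2.00 times pairs on short genes and Wilson intervals, which cover counting error only, are too narrow. Exon length is given in bases (other annotation columns were used for position and strand). The 10 bp rDNA bins were not used.

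From these, genes were selected by length, and placement, neighbours, detection and strand shares were computed in pandas 2.3.3 with numpy 2.4.6 under Python 3.11.15. Intervals came from SciPy 1.17.1 and figures from matplotlib 3.10.9. Only shared functions, such as those for intervals, placement and chains, were first tested on simulated data. The depth was 33677888 pairs, aligned or not, in 1 library, which allowed no test between samples. Reads lack molecular identifiers, so they are not independent molecules. The scale of an even spread took genome length as the summed last gene ends of the chromosomes. Genes named were the 10 highest (identifiers for 2), the highest of each length class and the 3 with most pairs at each strand extreme. These genes and all classes were chosen with earlier results of these data known. RefSeq lengths are from GRCh38.p14, and since 0 identifiers matched, no names or sequences were assigned. Alternatives were STAR counts, other minimums, a wider window and removal of the highest or of exon-overlapping genes.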

Additional observations from a re-analysis of the deposited data

How the results depend on the processing

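Of 38 values recomputed under alternative settings, 26 moved by less than their 95% interval or, for counts of genes, by less than 1.5 times. For differences in detection this interval treats genes as independent draws, although genes are not replicates, so it serves only as a yardstick. With at least 10 reads required, 298 short genes were detected in place of 490, the longest minus the shortest length class was 10.8 percentage points of detection, a smaller difference than with 3 reads, and the difference from genes of 116 to 350 bases changed sign, from -0.597 to 0.0959 percentage points. A window wider by 5 bases at each end gave a share of 2.09% in place of 1.73% of gene reads and 46.0% in place of 52.3% on the highest 10 genes. Without the highest gene these shares were 1.54% and 48.5%, and the same-strand share of pairs was 77.3% in place of 79.7%. That share was 63.5% without the highest 10 genes and 64.6% as a median over genes with at least 30 stranded pairs. Per kilobase of exon the highest 10 held 54.3%. Without short genes on an exon of another gene, the difference in detection between genes with and without a neighbour changed sign, from -2.42 to 0.357 percentage points. Chosen after seeing the data, at least 2 STAR pairs gave the same 490 genes as at least 3 reads. No paired analysis was possible because all values come from 1 library. The cause of these changes was not tested. Differences between classes of genes carry no replicate error, and nothing here extends beyond the 1 library measured.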
